A study of Mus musculus with 6 samples.

Results

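The heterotrimeric G protein subunits and the Ric8 chaperones were examined as a set of 10 genes chosen by symbol: the alpha subunits Gnal, Gnas, Gnao1 and Gnai2, the beta subunits Gnb1 and Gnb2, the gamma subunits Gng13 and Gng8, and the chaperones Ric8a and Ric8b. All 10 were found among the 24661 genes of the table and passed edgeR's filter on low counts. RNA came from 3 wild-type and 3 RTP1,2DKO mice, all C57BL/6 at postnatal day 21, and the methods describe sex-matched littermates of both sexes. In RTP1,2DKO the coding regions of RTP1 and RTP2, which carry odorant receptors (ORs) to the cell surface, were replaced by a loxP site and a puromycin cassette. The targeting was done in ES cells of a 129/B6 hybrid line, and the mice were backcrossed to C57BL/6. The labels name the tissue olfactory epithelium, whereas the methods describe whole olfactory mucosa with the surrounding tissue.

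A heterotrimeric G protein consists of an alpha subunit that binds GTP and a beta and a gamma subunit that stay together. In the cilia of mature olfactory sensory neurons (OSNs) an OR activates Gαolf, the product of Gnal, which stimulates the adenylyl cyclase encoded by Adcy3, and the resulting cAMP opens the channel formed by Cnga2, Cnga4 and Cngb1. Immature OSNs are known to use the related stimulatory subunit Gαs, the product of Gnas, before Gαolf replaces it, and Ric8b is the folding chaperone of Gαs and Gαolf.

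The targeted genes were checked first. Where single mice are listed, their values stand in the order of mice 1, 2 and 3 of the group. Normalized counts are the authors' estimated counts divided by the size factor of the mouse. Rtp1 had 19789 ± 5913 normalized counts (SD, n = 3) in wild-type mice, against 94.95 ± 12.24 (SD, n = 3) in RTP1,2DKO, and Rtp2 had 8388 ± 1181 and 45.03 ± 16.71. No library went against its label at these genes. The total estimated count per mouse was 31125410 to 41636996, and the gene Bpifb9b took 4.808% to 13.743% of it. The 8 mature OSN markers were detected in every mouse at a summed 127716 to 132296 normalized counts in the wild-type and 55513 to 64519 in RTP1,2DKO. All 8 fell in edgeR's quasi-likelihood test, Slc17a6 least with a log2 fold change of -0.75 and Adcy3, the cyclase downstream of Gαolf, with -1.41. In this bulk tissue, fewer cells of a type and less RNA per cell cannot be told apart.

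Of the 10 genes, Gnal and Ric8b fell and Gng8 rose in RTP1,2DKO at an adjusted p under 0.05 in edgeR's quasi-likelihood test, with Benjamini-Hochberg adjustment over all genes tested. Over all 22152 genes tested, 3.63% passed this test, 3.19% downward and 0.438% upward. Normalized counts were lower in every RTP1,2DKO mouse than in every wild-type mouse for 4 of the 10 genes, Gnal, Gnb1, Gng13 and Ric8b, against 9.24% of all genes tested. They were higher without overlap for 2 of the 10, Gnai2 and Gng8, against 7.17% of all genes. The median log2 fold change of the 10 genes was -0.05, with 5 positive and 5 negative, and that of all genes was 0.016. DESeq2's Wald test called 5 of the 10 genes, adding Gnb1 and Gng13, against 5.02% of all genes. When limma was run on log2(TPM + 1) or on log2(TPM + 0.1), 0 of the 10 passed after adjustment and 4 had an unadjusted p under 0.05. Few genes passed in these fits: of all 22152, limma called 140 down and 5 up with log2(TPM + 1), and 223 down and 11 up with log2(TPM + 0.1). TPM is the transcript level per length, scaled to the same total in each mouse. When the libraries were scaled to the mature OSN markers, the median of all genes moved to 1.209, the log2 fold changes of Gnal and Ric8b turned to 0.26 and 0.28, and neither was called.

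**Figure D1:**
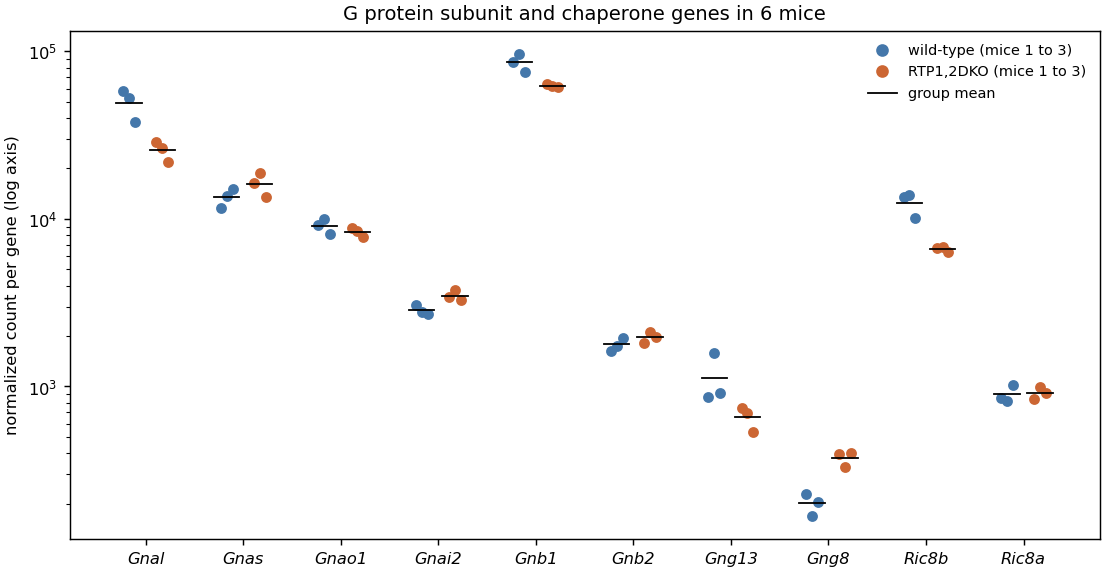
Normalized counts on a log axis for the 10 genes in each of the 6 mice, with wild-type and RTP1,2DKO mice as separate points and the group means as horizontal lines. Gnal runs from 37804 to 57794 in the wild-type and from 21955 to 28614 in RTP1,2DKO, while Gng8 runs from 168.9 to 227.6 and from 329.6 to 402.8.

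Gnal encodes Gαolf and lies at chr18:67088216-67226792 on the plus strand (GRCm38, as are all positions here). Its normalized counts were 57794, 52443 and 37804 in the 3 wild-type mice, against 28614, 26656 and 21955 in the 3 RTP1,2DKO mice. The lowest wild-type mouse stayed above the highest RTP1,2DKO mouse. The log2 fold change was -0.94 with a standard error of 0.18 and a 95% interval of -1.32 to -0.55 (adjusted p = 0.0087, edgeR quasi-likelihood test). Without RTP1,2DKO mouse 3 the change was -0.84 and the call was lost (adjusted p = 0.076, edgeR quasi-likelihood test). All counts of Gnal fell on 1 of its 2 listed transcripts, of 5489 bases, and the transcript of 5654 bases was listed at 0 in all 6 mice.

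Gnas encodes Gαs, the stimulatory subunit found in most cells of the body, and lies at chr2:174284320-174346744 on the plus strand. The 3 wild-type mice had 11665, 13643 and 15049 normalized counts and the 3 RTP1,2DKO mice had 16358, 18903 and 13482. The groups overlapped, since RTP1,2DKO mouse 3 lay below wild-type mice 2 and 3. The log2 fold change of 0.27 (standard error 0.15, 95% interval -0.05 to 0.60) did not pass the edgeR quasi-likelihood test (adjusted p = 0.53). The antisense gene Nespas, which overlaps 11117 bases of the locus on the other strand, had a mean of 1.908 normalized counts in the wild-type and 5.207 in RTP1,2DKO.

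The stimulatory subunits were then set against each other inside each mouse, on the TPM scale, which corrects for transcript length and does not depend on the size factors when a ratio is taken. The Gnal to Gnas ratio was 0.947, 0.730 and 0.480 in the 3 wild-type mice, against 0.333, 0.267 and 0.312 in the 3 RTP1,2DKO mice. Gnas was thus the more abundant transcript in all 6 mice, and the groups did not overlap. The log2 ratio was -0.53 ± 0.49 (SD, n = 3) in wild-type mice, against -1.72 ± 0.17 (SD, n = 3) in RTP1,2DKO, a difference of -1.19 (two-sided exact permutation test, p = 0.1, adjusted p = 0.1625 over 13 ratios). With 3 mice against 3, 0.1 is the smallest p that this test can give, so no ratio could pass.

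Gnao1 and Gnai2 encode Gαo and Gαi2, inhibitory subunits that are the main alpha subunits of the basal and the apical neurons of the vomeronasal organ. Gnao1, at chr8:93809966-93969388 on the plus strand, had 9203, 9996 and 8143 normalized counts in the wild-type and 8866, 8466 and 7842 in RTP1,2DKO. These ranges overlapped, and the log2 fold change was -0.12 with a standard error of 0.12 (adjusted p = 0.79, edgeR quasi-likelihood test). Gnai2, at chr9:107614125-107635367 on the minus strand, had 3064, 2796 and 2696 normalized counts in the wild-type and 3406, 3752 and 3288 in RTP1,2DKO. Every RTP1,2DKO mouse was above every wild-type mouse for Gnai2, but the log2 fold change of 0.29 (standard error 0.11, 95% interval 0.05 to 0.53) did not pass the adjustment (adjusted p = 0.28, edgeR quasi-likelihood test). The ratio of Gnao1 to Gnai2 in TPM was 1.87, 2.28 and 1.89 in wild-type mice and 1.62, 1.41 and 1.49 in RTP1,2DKO mice, without overlap (exact permutation test, p = 0.1, the smallest possible). The 5 vomeronasal neuron markers summed to 1653 to 2054 normalized counts in the wild-type and 2129 to 2589 in RTP1,2DKO, and none was at 0 in all mice. The channel gene Trpc2, the most abundant of the 5 in normalized counts, had a log2 fold change of 0.46 (adjusted p = 0.13, edgeR quasi-likelihood test). Without Trpc2 the summed counts of the list overlapped between the groups. After adjustment 0 of the 5 passed, with 1 at an unadjusted p under 0.05 and 0 called by DESeq2. The part of vomeronasal tissue in the values of Gnai2 and Gnao1 was not tested.

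Within the summed TPM of the 16 alpha subunit genes, Gnas and Gnal took the largest shares in every mouse. The share of Gnal was 28.18% ± 5.59 (SD, n = 3) in wild-type mice, against 15.37% ± 1.20 (SD, n = 3) in RTP1,2DKO. That of Gnas was 40.40% ± 5.61 and 50.73% ± 2.98, and that of Gnai2 was 4.97% ± 0.37 and 6.35% ± 0.43. These 3 shares did not overlap between the groups (exact permutation test, p = 0.1 each, adjusted p = 0.1143 over 8 shares), while the share of Gnao1 did, at 9.97% ± 0.78 and 9.57% ± 0.79. Shares within a class are not independent, since a fall in any gene raises the shares of the rest. The TPM of Gnas itself overlapped, at 451.0 ± 79.13 (SD, n = 3) in wild-type mice and 471.1 ± 122.8 (SD, n = 3) in RTP1,2DKO. By estimated counts, without correction for length, Gnal had the larger share in both groups, 52.92% and 35.50%, and Gnas had 14.75% and 22.37%. The summed TPM of the alpha class itself overlapped, at 829.8 to 1360.4 in the wild-type and 688.5 to 1120.5 in RTP1,2DKO. In normalized counts the summed alpha class was lower without overlap, at 81971.3 to 98984.7 in the wild-type and 64629.5 to 76798.1 in RTP1,2DKO.

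**Figure D2:**
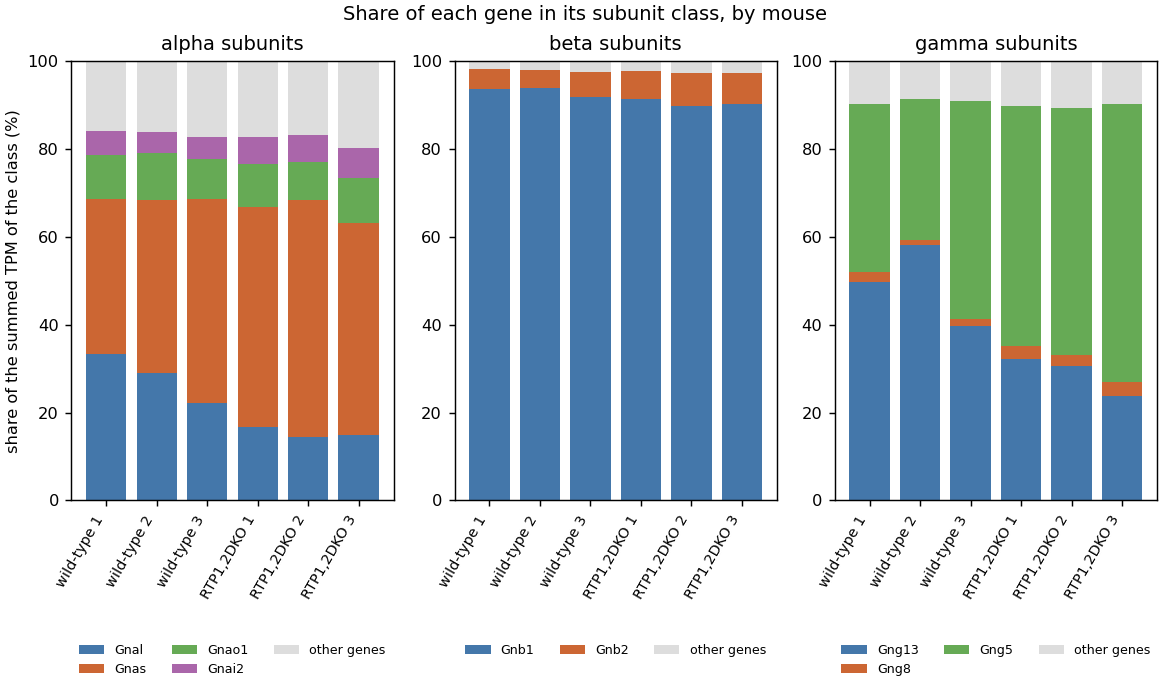
Share (%) of each gene in the summed TPM of the alpha, beta and gamma subunit genes, as stacked bars for each of the 6 mice. The Gnal segment is 22.26% to 33.37% in wild-type and 14.40% to 16.71% in RTP1,2DKO mice, and the Gng13 segment is 39.69% to 58.08% and 23.77% to 32.22%.

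Gnb1 encodes the beta subunit known to pair with Gαolf in olfactory cilia and lies at chr4:155491361-155559269 on the plus strand. Its normalized counts were 86794, 96011 and 75409 in the 3 wild-type mice, against 63995, 61968 and 61069 in the 3 RTP1,2DKO mice. All RTP1,2DKO mice lay below all wild-type mice. The log2 fold change of -0.47 (standard error 0.16, 95% interval -0.80 to -0.13) did not pass the edgeR quasi-likelihood test (adjusted p = 0.18), whereas DESeq2 called it (adjusted p = 0.0044). Gnb2, a widely expressed beta subunit at chr5:137528127-137533510 on the minus strand, had 1639, 1754 and 1957 normalized counts in the wild-type and 1819, 2106 and 1972 in RTP1,2DKO. The Gnb2 groups overlapped, with a log2 fold change of 0.14 and a standard error of 0.12 (adjusted p = 0.74, edgeR quasi-likelihood test). Gnb1 made up 93.10% ± 1.17 (SD, n = 3) of the summed TPM of the 5 beta subunit genes in wild-type mice, against 90.48% ± 0.79 (SD, n = 3) in RTP1,2DKO, so it was the dominant beta transcript in both genotypes. The Gnb1 to Gnb2 ratio in TPM was 19.6 in the wild-type and 12.9 in RTP1,2DKO, without overlap (exact permutation test, p = 0.1, the smallest possible).

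Gng13 encodes the gamma subunit of the olfactory cilia, which is also used by taste and tuft cells, and lies at chr17:25717171-25719406 on the plus strand. The 3 wild-type mice had 862.7, 1580.9 and 911.8 normalized counts and the 3 RTP1,2DKO mice had 741.8, 697.7 and 538.0. Wild-type mouse 2 stood far above the rest, and the groups did not overlap. The log2 fold change was -0.76 (standard error 0.22, 95% interval -1.24 to -0.29; adjusted p = 0.092, edgeR quasi-likelihood test), and it was -0.43 without wild-type mouse 2. DESeq2 called Gng13 (adjusted p = 0.014), as did edgeR's likelihood-ratio test (adjusted p = 0.046). The 5 tuft and microvillous cell markers, among them Trpm5 and Pou2f3, summed to 355.0 to 391.2 normalized counts in the wild-type and 356.7 to 381.5 in RTP1,2DKO. Chtf18 overlaps 481 bases of Gng13 on the opposite strand and had a mean of 215.4 normalized counts in the wild-type and 242.2 in RTP1,2DKO. Of the words of 31 bases in Gng13, 53.8% occurred in no other gene when both strands were compared and 100% when only the sense strand was, so the count of Gng13 is uncertain unless strand was used in the counting, which the sources do not state.

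Gng8 encodes a gamma subunit known from vomeronasal neurons and immature OSNs and lies at chr7:16891786-16895436 on the plus strand. Its normalized counts were 227.6, 168.9 and 205.1 in the 3 wild-type mice, against 395.2, 329.6 and 402.8 in the 3 RTP1,2DKO mice. Every RTP1,2DKO mouse was above every wild-type mouse, and Gng8 rose by 0.91 on the log2 scale (standard error 0.18, 95% interval 0.51 to 1.30; adjusted p = 0.013, edgeR quasi-likelihood test). The call rested on few counts and was kept in 3 of 6 fits that left out 1 mouse, being lost without wild-type mouse 2, RTP1,2DKO mouse 1 or RTP1,2DKO mouse 3 at log2 fold changes of 0.79, 0.87 and 0.85 (adjusted p = 0.055, 0.062 and 0.074, edgeR quasi-likelihood test). Of the 8 immature OSN markers, 7 had a positive log2 fold change in edgeR and DESeq2, but 4 in both limma fits on TPM. The edgeR median was 0.23. In normalized counts 4 of the 8 were higher without overlap, against 7.17% of all genes tested. Gap43, a protein of growing axons, was the marker called, at 0.58 (adjusted p = 0.043, edgeR quasi-likelihood test), and it missed the threshold with the replicate number as a block, at 0.59 (adjusted p = 0.059, edgeR quasi-likelihood test). Its call was kept in 1 of 6 fits that left out 1 mouse. Relative to the geometric mean of the 8 immature OSN markers in TPM, Gng8 stood at 0.304, 0.260 and 0.370 in wild-type mice and at 0.491, 0.454 and 0.531 in RTP1,2DKO mice, without overlap (exact permutation test, p = 0.1, the smallest possible). Gnas relative to the same markers overlapped, at 8.02 in the wild-type and 8.19 in RTP1,2DKO (exact permutation test, p = 1.0). The summed vomeronasal markers given above did not overlap between the groups, but without Trpc2 the other 4 summed to 553.4 to 750.0 normalized counts in the wild-type and 654.9 to 749.2 in RTP1,2DKO, which overlapped. Their part in the rise of Gng8 was not tested.

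The Gng13 to Gng8 ratio in TPM was 21.7, 53.5 and 25.4 in the 3 wild-type mice, against 10.7, 12.1 and 7.63 in the 3 RTP1,2DKO mice. The groups did not overlap, and the log2 difference of -1.63 was the largest of the 13 ratios (exact permutation test, p = 0.1, adjusted p = 0.1625). In the summed TPM of the 12 gamma subunit genes, Gng13 took 49.14% ± 9.21 (SD, n = 3) in wild-type mice, against 28.86% ± 4.48 (SD, n = 3) in RTP1,2DKO, and Gng8 took 1.65% ± 0.61 and 2.88% ± 0.31. Gng5 took 40.06% ± 8.84 and 57.99% ± 4.66, higher without overlap, and was the largest gamma share in all 3 RTP1,2DKO mice and in wild-type mouse 3. By estimated counts the share of Gng13 was 15.10% and 7.83%. In normalized counts, without correction for length, another gamma gene had a higher mean than Gng5 in both groups. The Gng13 transcript of 438 bases was given an effective length of 63.8 bases in the files, so its TPM rests on a strong length correction.

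The 25 other subunit genes were counted as lists. Of the 12 other alpha genes, 0 were called by edgeR or by DESeq2, 0 had an unadjusted p under 0.05, and the median log2 fold change was 0.01. In normalized counts, 1 of the 12 was higher in RTP1,2DKO without overlap and 0 were lower. Gnai3, an inhibitory subunit of many cell types and the most abundant of them in TPM, had 4056 ± 398.0 normalized counts (SD, n = 3) in wild-type mice, against 4152 ± 165.5 (SD, n = 3) in RTP1,2DKO. Of the 3 other beta genes, 0 were called by either tool and 0 had an unadjusted p under 0.05. Their most abundant member in TPM, Gnb5, which pairs with RGS proteins of the R7 group, had a log2 fold change of -0.24 (adjusted p = 0.57, edgeR quasi-likelihood test). Its normalized counts were lower in RTP1,2DKO without overlap, against 9.24% of all genes tested. The gamma genes lay mainly on the positive side: of the 10 others, 9 had a positive log2 fold change in edgeR and DESeq2 but 6 in both limma fits on TPM. The edgeR median was 0.27. Gng2, Gng3, Gng4 and Gng5 were higher in RTP1,2DKO without overlap, against 7.17% of all genes tested. These 4 were named after their values were seen. All 4 had an unadjusted p under 0.05, 0 were called by edgeR and 1 by DESeq2. Gng5, the most abundant of them in TPM, had 925.8, 1222.2 and 1587.7 normalized counts in wild-type mice and 1748.2, 1780.8 and 1993.2 in RTP1,2DKO mice. Its log2 fold change was 0.56 (adjusted p = 0.12, edgeR quasi-likelihood test), and it passed with the replicate number as a block, at 0.59 (adjusted p = 0.037, edgeR quasi-likelihood test), where 4.03% of all genes passed. It also passed without wild-type mouse 3, at 0.78 (adjusted p = 0.017, edgeR quasi-likelihood test).

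**Figure D3:**
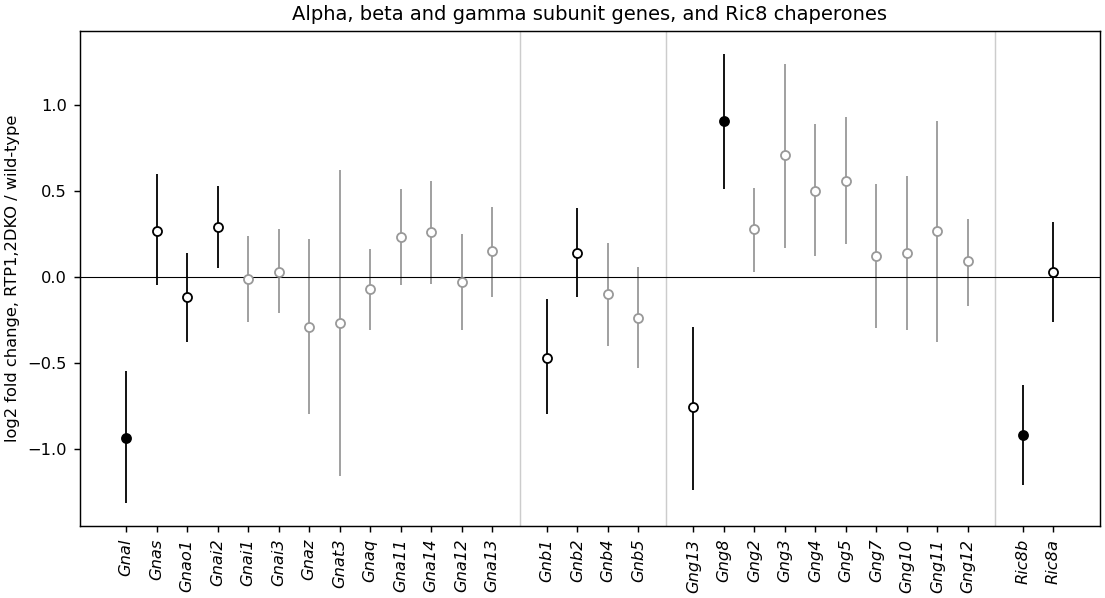
Log2 fold change (RTP1,2DKO minus wild-type) with 95% intervals for the 10 genes and for the 19 other subunit genes with a mean of at least 50 normalized counts, grouped by class, with 6 rarer genes left out. Filled points mark an adjusted p under 0.05 in edgeR's quasi-likelihood test, and grey marks the other subunit genes. Ric8b at -0.92 and Gnal at -0.94 lie lowest, and Gng8 at 0.91 lies highest.

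Ric8b and Ric8a are chaperones that fold newly made alpha subunits and act as exchange factors, Ric8b for the stimulatory subunits and Ric8a for the inhibitory and the other classes. Ric8b lies at chr10:84917616-85018337 on the plus strand and had 13427, 13846 and 10149 normalized counts in the 3 wild-type mice, against 6725, 6758 and 6309 in the 3 RTP1,2DKO mice. The RTP1,2DKO mice lay close together and all below the lowest wild-type mouse. Ric8b fell by 0.92 on the log2 scale (standard error 0.13, 95% interval -1.21 to -0.63; adjusted p = 0.0017, edgeR quasi-likelihood test) and kept the call in 6 of 6 fits that left out 1 mouse. Ric8a, at chr7:140856957-140864372 on the plus strand, had 852.4, 824.3 and 1017.7 normalized counts in the wild-type and 841.9, 987.2 and 916.3 in RTP1,2DKO, so the groups overlapped. Its log2 fold change was 0.03 with a 95% interval of -0.26 to 0.32 (adjusted p = 0.97, edgeR quasi-likelihood test). The Ric8b to Ric8a ratio in TPM was 8.64, 9.22 and 5.47 in wild-type mice and 4.38, 3.75 and 3.77 in RTP1,2DKO mice, without overlap (exact permutation test, p = 0.1, the smallest possible).

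Ric8b is known in a full-length form and in a splice form that lacks exon 9, and the files list 2 Ric8b transcripts, of 5017 and 4897 bases. They differ by 120 bases, which is the length of exon 9 of 10 in the GENCODE M21 transcript at chr10:85001782-85001901, plus strand. Since the files give lengths and no structure, the transcripts were assigned to the forms with and without this exon by length alone. The exon is shown because the comparison of the forms turns on it, in capitals between 20 bases of the exon before and of the exon after it in lower case:
Ric8b exon 9: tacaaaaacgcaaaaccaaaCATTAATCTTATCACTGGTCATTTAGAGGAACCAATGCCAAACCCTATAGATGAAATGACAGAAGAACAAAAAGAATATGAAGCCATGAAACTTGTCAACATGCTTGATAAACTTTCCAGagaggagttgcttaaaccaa

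The share of the Ric8b estimated counts on the longer transcript was 46.29%, 46.02% and 44.57% in the 3 wild-type mice, against 50.96%, 51.02% and 49.09% in the 3 RTP1,2DKO mice. The shares did not overlap, and they were 45.63% ± 0.93 (SD, n = 3) and 50.36% ± 1.10 (SD, n = 3), a difference of 4.73 percentage points (exact permutation test, p = 0.1, adjusted p = 0.45 over 9 transcript shares). Among all 10250 transcript shares that could be compared, 11.2% did not overlap between the groups. Both forms were lower in RTP1,2DKO, the longer one at 5704 ± 1025 normalized counts (SD, n = 3) in wild-type mice, against 3324 ± 195.6 (SD, n = 3) in RTP1,2DKO, the shorter one at 6771 ± 1000 and 3273 ± 52.45. The fold was 0.583 for the longer and 0.483 for the shorter form. This comparison was chosen after the values were seen, and the error of dividing reads between the forms is unknown. The transcript shares of Gnas, Gnb1 and Gnao1 overlapped between the groups.

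**Figure D4:**
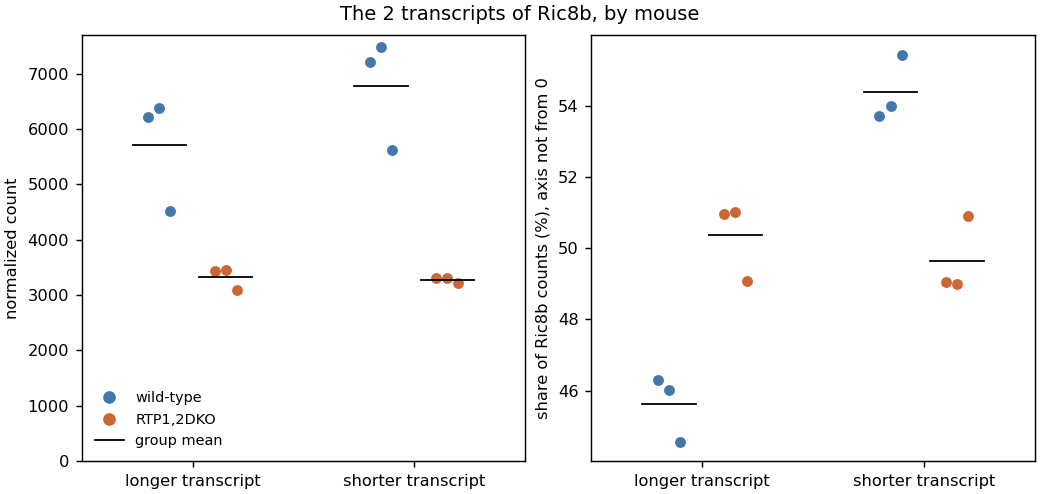
Share (%) of the longer Ric8b transcript (5017 bases) in the Ric8b estimated counts of each mouse and of the shorter one (4897 bases), on an axis that does not start at 0, beside the normalized counts of both. Points are mice and lines are group means. The share of the longer transcript is 44.57% to 46.29% in wild-type and 49.09% to 51.02% in RTP1,2DKO mice.

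The 4 genes that were lower without overlap were then divided by the geometric mean of the 8 mature OSN markers in TPM. Ric8b stood at 0.714, 0.697 and 0.572 of the markers in wild-type mice and at 0.817, 0.807 and 0.782 in RTP1,2DKO mice, 1.22-fold higher without overlap. Gnb1 stood at 7.96, 8.34 and 7.32 and at 13.4, 12.8 and 13.1, 1.66-fold higher without overlap (exact permutation test, p = 0.1 for both, the smallest possible). Gnal stood at 2.74, 2.35 and 1.90 and at 3.10, 2.84 and 2.43, and the groups overlapped (exact permutation test, p = 0.2). Gng13 also overlapped, at a ratio of 3.94 in the wild-type and 5.48 in RTP1,2DKO (exact permutation test, p = 0.2). Between mice with the same number, all 4 ratios were higher in the RTP1,2DKO mouse in 3 of 3 pairs. For Ric8b and Gnb1, whose groups did not overlap, any pairing gives this. For Gnal and Gng13 it rests on the numbers, which neither the labels nor the methods tie to litters. The markers themselves fell unequally, from Stoml3 at 0.250-fold to Slc17a6 at 0.597-fold, and Ric8b at 0.529-fold and Gnal at 0.522-fold lay inside that range. Omp stood at 0.534-fold, and Gnb1 at 0.724-fold lay above the range. The Gnal to Gng13 ratio overlapped as well, at 0.584 and 0.507 (exact permutation test, p = 0.7), as did Gnas to Gng8, at 26.0 and 16.7 (exact permutation test, p = 0.2), although the latter was lower in 3 of 3 same-numbered pairs.

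**Figure D5:**
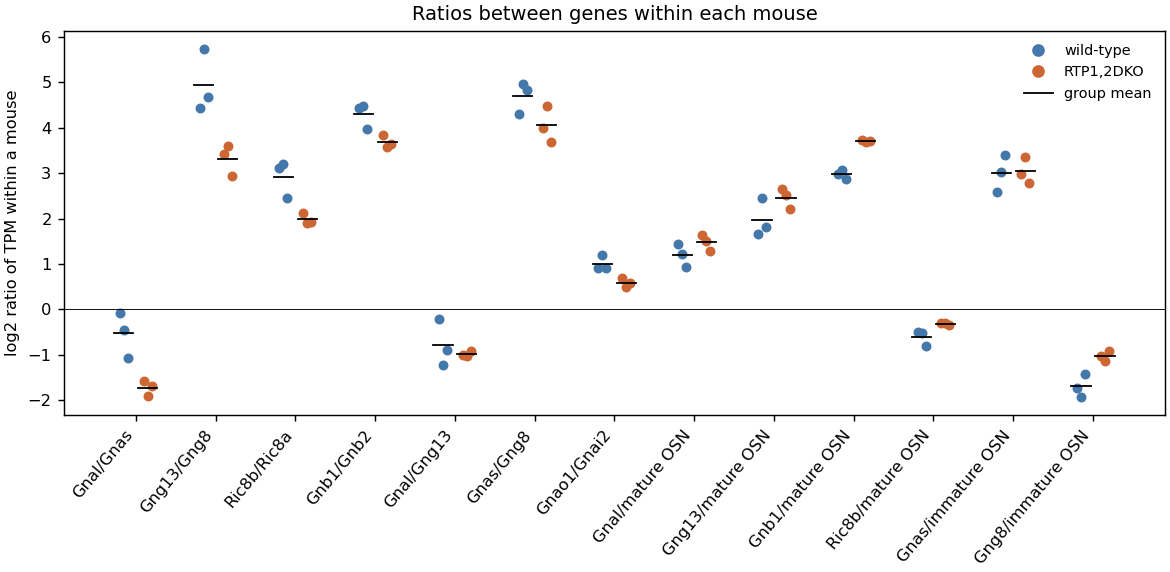
Log2 ratios of TPM within each mouse for the 13 gene pairs and marker ratios, with wild-type and RTP1,2DKO mice as points and group means as lines. The Gnal to Gnas ratio lies at -1.06 to -0.08 in the wild-type and at -1.91 to -1.58 in RTP1,2DKO, and the Gng13 to Gng8 ratio at 4.44 to 5.74 and 2.93 to 3.60.

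Genes that make or limit G proteins were counted on the same fit. Of 20 genes that fold or lipidate the subunits, 18 could be tested, with Pdc and Pdcl2 at 0 in all mice. Of the 18, 0 were called by edgeR or by DESeq2, 1 had an unadjusted p under 0.05, and the median log2 fold change was -0.01. That gene was Rap1gds1, which binds prenylated small G proteins and was the most abundant of the list in counts, with 18454 ± 2874 normalized counts (SD, n = 3) in wild-type mice, against 14728 ± 1070 (SD, n = 3) in RTP1,2DKO. Tcp1, a subunit of the chaperonin that folds beta subunits, had a log2 fold change of 0.13 (adjusted p = 0.78, edgeR quasi-likelihood test). Of 25 RGS and GoLoco genes, which shorten or hold the signal of alpha subunits, 2 fell and 0 rose in edgeR's quasi-likelihood test. Over all genes tested, 3.19% fell and 0.438% rose. Rgs6 had 2105, 2149 and 1651 normalized counts in wild-type mice and 1249, 1192 and 1036 in RTP1,2DKO mice, a log2 fold change of -0.76 with a standard error of 0.14 (adjusted p = 0.0059, edgeR quasi-likelihood test). Rgs7 had 295.8, 409.3 and 368.3 and 146.5, 202.3 and 227.3, a log2 fold change of -0.90 with a standard error of 0.21 (adjusted p = 0.030, edgeR quasi-likelihood test). Neither overlapped between the groups. Both pair with Gnb5, as do Rgs9 and Rgs11, which were not called: Rgs9 overlapped, with a log2 fold change of -0.33 (adjusted p = 0.47, edgeR quasi-likelihood test), and Rgs11 was higher in RTP1,2DKO without overlap, at 0.27 (adjusted p = 0.39, edgeR quasi-likelihood test). Rgs9 and Rgs11 were named after their values were seen. The call of Rgs6 was kept in 6 of 6 fits that left out 1 mouse and that of Rgs7 in 2 of 6.

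Marker lists of the other cells in the mucosa were measured beside these genes. The 6 neuronal progenitor markers summed to 5944 to 7179 normalized counts in the wild-type and 8434 to 10545 in RTP1,2DKO. All 6 were higher without overlap, against 7.17% of all genes tested, and all 6 had an unadjusted p under 0.05. After adjustment 0 passed in edgeR, and 1 passed in DESeq2, against 5.02% of all genes. The 5 blood markers summed to 57894 to 94381 in the wild-type and 92243 to 169783 in RTP1,2DKO, which overlapped. Their median log2 fold change was 0.76, and 0 passed in edgeR, with 5 at an unadjusted p under 0.05 and 2 called by DESeq2. Summed levels also overlapped for the sustentacular, horizontal basal, respiratory ciliated, immune, endothelium and muscle lists, of which 0 genes passed in edgeR or DESeq2 and 1 had an unadjusted p under 0.05, Tekt1. Taken singly, 2 of the 4 respiratory ciliated markers were lower in RTP1,2DKO without overlap, against 9.24% of all genes tested. The immune markers, for cells rich in Gnai2, summed to 665.9 to 867.3 in the wild-type and 597.4 to 867.3 in RTP1,2DKO. The part of any of these cells in the values of the 10 genes was not tested.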

How the data were processed

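Stranded RNA-Seq libraries were made from olfactory mucosa, 3 from wild-type and 3 from RTP1,2DKO mice. The authors assigned reads with kallisto to mouse transcripts from the UCSC Genome Browser with extended OR annotations, and deposited estimated counts and TPM for each of 38041 transcripts, with lengths that were the same in every mouse. The kallisto version and its strand setting are not given in the sources used here, and the submitters' processing notes name the build mm10.

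Estimated counts were summed to 24661 genes and rounded. TPM was summed by gene and not rounded. The total estimated count was 31125410 to 41636996 per mouse, and the smallest estimated count of any of the 10 genes in a mouse was 177, for Gng8. The 22152 genes that reached 1 count in any mouse were tested with edgeR 4.0.16 (quasi-likelihood test, non-legacy dispersion fit) on DESeq2 1.42.0 size factors of 0.907 to 1.147 in R 4.3.3, with Benjamini-Hochberg adjustment over all of them and a threshold of 0.05. On simulated data for this comparison, with 21960 genes, the quasi-likelihood test recovered 52% and 62% of genes changed by a log2 fold of -1 and 1, 78% and 94% of those changed by -2 and 2, and 4% of its calls were false. The simulated spread followed abundance alone, with no spread particular to a gene. The changed genes were drawn above a minimum mean count, and the simulation was not repeated. These rates may therefore not hold for the real data. Ratios and shares of TPM were compared by two-sided exact permutation tests with scipy 1.17.1, numpy 2.4.6 and pandas 2.3.3 in Python 3.11.15. Positions, exons and words of 31 bases came from GENCODE M21 (GRCm38), matched by symbol for all 10 genes. Transcripts were compared where they took at least 5% of a gene with at least 100 counts.

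Groups and numbers came from the sample labels. Deviations of same-numbered mice from their group means correlated at 0.139, 0.179 and 0.103 across 18133 genes. Those of differently numbered mice correlated at -0.219 to 0.093, so the highest of them came close to the lowest same-numbered value. Whether the numbers pair the mice is therefore not settled. A fit with the number as a block was run as an alternative, while the main fit and the exact tests left the number out. The methods describe littermates without tying the numbers to litters. The alternatives were TMM, edgeR's filter on low counts, DESeq2's Wald test, edgeR's likelihood-ratio test, limma 3.58.1 on log2(TPM + 1) and log2(TPM + 0.1), a scaling to the mature OSN markers, and each mouse left out. The legacy setting of the quasi-likelihood test and all transcript shares were chosen after seeing the data.

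The 10 genes and all lists were chosen with earlier results of these data known. The text names the 10 genes, Rtp1, Rtp2, of each other subunit class the gene with the highest mean TPM, the called genes of every list or else its most abundant ones, and the 3 genes with the nearest profile to each of 5 of the 10 genes. Exceptions are named as such. The result of 1 further marker list is not reported here.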

Additional observations from a re-analysis of the deposited data

How the results depend on the processing

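Under TMM, edgeR's filter on low counts and the legacy quasi-likelihood setting, the 24 log2 fold changes recomputed kept their direction and side of the threshold. DESeq2 called 4 of the 10 genes down and Gng8 up, 1 other subunit gene (Gng5), 3 immature OSN markers (Gap43, Dpysl3 and Stmn1) and 3 genes of other marker lists (Top2a, Hbb-bs and Hbb-bt). TMM, the likelihood-ratio test and the legacy setting each called 1 gene of the other marker lists, Hbb-bt. With the replicate number as a block, Gnal was -0.92, Ric8b -0.91 and Gng8 0.91 and all were called, 1 other subunit gene (Gng5) and 1 gene of the other marker lists (Top2a) were gained, and Stmn1 was called in place of Gap43. The block changed no other call. Over all genes, the counts down and up were 707 and 97, and 742 and 150 with the block, 895 and 217 with DESeq2, 221 and 16588 with the mature OSN scaling, 140 and 5 with limma on log2(TPM + 1), and 223 and 11 with limma on log2(TPM + 0.1).

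Scaling to the mature OSN markers holds those markers near 0 by construction and moved the median of all genes to 1.209. Under it 16588 of all 22152 genes tested were called up and 221 down, so a call upward was the usual outcome for any gene. Of the 10 genes, 0 were called down and 7 up. Also called were 23 other subunit genes, 18 folding and lipidation genes, 19 RGS and GoLoco genes, 2 mature OSN markers, 8 immature OSN markers and 38 genes of other marker lists. Log2 fold changes reversed to 0.26 for Gnal, 1.08 for Gnao1, 0.73 for Gnb1, 0.44 for Gng13, 0.28 for Ric8b, 0.96 for Gnb5, 0.43 for Rgs6, 0.30 for Rgs7, 0.29 for Omp, 0.14 for Cnga2, 0.02 for Cnga4, 0.10 for Cngb1, 0.01 for Ano2 and 0.45 for Slc17a6. All of these lay below the shifted median of all genes.

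Both limma fits called 0 of the 10 genes down and 0 up, 0 RGS and GoLoco genes and 0 immature OSN markers, and they called 2 mature OSN markers with log2(TPM + 1) and 3 with log2(TPM + 0.1). They moved the median of all genes to -0.132 and -0.191. The fold changes reversed to -0.08 and -0.09 for Gnb2, to -0.18 and -0.20 for Ric8a and to -0.19 in both for Gnai3. The cause was not tested. In counts in place of TPM, the difference of the alpha share of Gnao1 reversed to 1.77 percentage points.

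In the 6 fits without 1 mouse, 1 to 2 of the 10 genes were called down and 0 to 1 up, with 0 to 1 other subunit genes, 1 to 2 RGS and GoLoco genes, 0 to 2 immature OSN markers and 0 to 3 genes of other marker lists. The log2 fold change ranged from -0.03 to 0.13 for Ric8a, from -0.04 to 0.08 for Gnai3, and the log2 ratio difference from -0.43 to 0.08 for Gnal to Gng13 and from -0.18 to 0.22 for Gnas to the immature OSN markers. The difference in share ranged from -0.82 to 0.04 percentage points for Gnao1, from -0.43 to 2.05 for the Gnas transcript of 1468 bases and from -2.07 to 0.29 for that of 1720 bases. The 4.73 points of the longer Ric8b transcript ranged from 4.20 to 5.36. All exact tests were limited to p = 0.1 by 3 mice a group.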

Other observations

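Genes were also ranked by how closely their profile over the 6 mice followed that of Gnal, Ric8b, Gng13, Gnas or Gng8, among 13900 genes with a mean of at least 100 normalized counts. Likeness was the root mean square difference of log2(normalized count + 1) after centring each gene on its own mean. The nearest to Gnal were Pde7b at 0.062, Stxbp5l at 0.089 and Pde1c at 0.101, with a median of 0.546 over all genes. Pde7b and Pde1c encode phosphodiesterases, enzymes that break down cyclic nucleotides, and Stxbp5l a syntaxin-binding protein. Pde7b had a mean of 11076 normalized counts in the wild-type and 5961 in RTP1,2DKO. The nearest to Ric8b were Fgf12 at 0.058, Pde1c at 0.069 and Pcdh10 at 0.083, so Pde1c was among the nearest of both. The median over all genes was 0.513.

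The nearest to Gng13 were 3 OR genes, Olfr1232 at 0.126, Olfr1251 at 0.139 and Olfr49 at 0.145, which is farther than for Gnal and Ric8b. Gng13 and these ORs had fewer counts than Gnal, with means of 180.5 for Olfr1232 and 324.8 for Olfr1251 in the wild-type. The nearest to Gng8 were Crabp1, a retinoic acid binding protein, at 0.120, Fam189a1 at 0.149 and the OR gene Olfr1303 at 0.149. Crabp1 had 216.8 normalized counts in the wild-type and 399.6 in RTP1,2DKO. The nearest to Gnas were Chek2 at 0.040, Eif1ax at 0.052 and Sra1 at 0.053, where the median over all genes was 0.282. The 6 mice are few, and the ranks were not tested.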
